A study of Mus musculus with 6 samples.

Results

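Prl, Gh, Cga, Pomc, Gnrhr and Pou1f1 are genes of the anterior and intermediate pituitary, and all 6 were read in RNA of the mouse cochlea. They are 6 of the 41096 genes in the deposited table. Each was taken by its symbol from the authors' list of genes that were lower after treatment with mesenchymal stromal cells (MSC), so a lower value in that group chose the genes and is given only as a description, with no test. In these libraries Prl and Gh carried most of the signal, every one of the 6 genes was highest in the same sound trauma animal (specimen 6), and the groups overlapped for every one of them. Of all 15970 genes that passed a filter on low counts, 21.1% were highest in specimen 6, and of the tested genes on that list, which are higher in sound trauma by their selection, 29.9% were.

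The animals were female C57BL/6 mice of 4 weeks, written C56Bl/6 in the labels. All of them were exposed to a 16 kHz sound for 4 h, and no unexposed cochlea entered the comparison. The treatment was given 48 h after the exposure. The MSC treated animals received human MSC, isolated from Wharton's jelly (the gelatinous tissue of the umbilical cord) of 3 cords, in 1 µl injected through the posterior semicircular canal. The sound trauma animals received artificial perilymph by the study's methods, and the labels describe them as exposed to noise alone. RNA was taken from the left cochlea 2 days after treatment by the labels and 72 h after it by the methods. There were 3 libraries in each group, each from 1 animal, named here by their specimen numbers (6, 8 and 10 in sound trauma, 13, 18 and 20 in the MSC treated group), while the methods give 5 animals per group. Reads on genes came to between 9170390 and 11030863 per library. The cochlear markers with a name, among them Otog and Otoa of the acellular matrices and Otof of the hair cell synapse, were read in every library, with a summed scaled count between 1967 and 4875.

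The anterior pituitary releases peptide hormones from cell types that arise in separate lineages. The transcription factor Pou1f1 (Pit-1) directs somatotropes, which make growth hormone, lactotropes, which make prolactin, and thyrotropes, which make thyrotropin from its beta subunit Tshb and the alpha subunit Cga. Gonadotropes share Cga and join it to Lhb or Fshb under the control of gonadotropin-releasing hormone and its receptor Gnrhr, whereas corticotropes and melanotropes use Tbx19 and cut their hormones from the Pomc precursor.

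The 250 bases before the start of transcription are shown for a hormone of the Pou1f1 lineage (Prl), for Pou1f1 itself, for the subunit that thyrotropes and gonadotropes share (Cga) and for the corticotrope and melanotrope precursor (Pomc), from RefSeq on GRCm38.p6. They lie on the plus strand at chr13:27057320-27057569 for Prl, chr16:65520262-65520511 for Pou1f1, chr4:34893529-34893778 for Cga and chr12:3954695-3954944 for Pomc. Capitals mark TATNCAT, a core of the Pou1f1 motif, or TGACCTT, a core of the motif of the gonadotrope factor Nr5a1, on either strand.
Prl: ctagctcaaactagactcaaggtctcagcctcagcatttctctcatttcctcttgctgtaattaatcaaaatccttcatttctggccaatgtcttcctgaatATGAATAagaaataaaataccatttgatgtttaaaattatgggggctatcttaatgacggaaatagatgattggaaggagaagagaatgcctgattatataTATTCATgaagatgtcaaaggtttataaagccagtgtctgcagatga
Pou1f1: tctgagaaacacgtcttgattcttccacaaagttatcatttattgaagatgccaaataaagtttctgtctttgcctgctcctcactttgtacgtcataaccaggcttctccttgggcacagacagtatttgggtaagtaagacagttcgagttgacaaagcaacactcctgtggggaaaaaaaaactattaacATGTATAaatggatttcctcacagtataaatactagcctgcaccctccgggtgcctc
Cga: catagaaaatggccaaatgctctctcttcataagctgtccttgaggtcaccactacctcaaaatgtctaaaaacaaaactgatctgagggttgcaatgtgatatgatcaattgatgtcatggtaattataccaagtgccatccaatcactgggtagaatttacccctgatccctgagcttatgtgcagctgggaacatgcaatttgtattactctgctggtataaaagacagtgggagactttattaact
Pomc: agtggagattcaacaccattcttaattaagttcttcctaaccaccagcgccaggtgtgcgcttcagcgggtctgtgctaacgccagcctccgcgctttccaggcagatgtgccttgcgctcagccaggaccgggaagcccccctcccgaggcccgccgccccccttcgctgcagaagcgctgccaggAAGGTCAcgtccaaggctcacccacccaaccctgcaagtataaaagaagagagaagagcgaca
TATNCAT was found in Prl from base -148 on the minus strand and from base -47 on the plus strand, and in Pou1f1 from base -57 on the minus strand, where it overlaps a TATAAA from base -54. TGACCTT was found in Pomc from base -63 on the minus strand, and neither run of letters was found in the Cga window. Pou1f1 had another window, at chr16:65523059-65523308, which is not shown. Neither run of letters was found in that window or in the window of Gnrhr. Over 32851 promoter windows of this length, searched on both strands, 7.92% held TATNCAT and 4.08% held TGACCTT. A match is a run of letters and was not tested as a binding site. Of the 6 genes, 5 had an entry in the promoter table and Gh had none.

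Prolactin, the hormone of lactotropes, was the most abundant of the 6 per length of gene in every library, although Gh had more reads in specimen 20. The scaled count of Prl, the number of reads on the gene after the authors' scaling of each library, was 200471 in specimen 6, 2128 in specimen 8 and 633 in specimen 10 of the sound trauma group. After MSC it was 5856 in specimen 13, 627 in specimen 18 and 10512 in specimen 20. On this scale specimen 6 stood 19.1-fold above the next library, and both other sound trauma animals lay within the range of the MSC treated animals. In specimen 6, Prl alone took 172980 reads, 1.78% of all reads on genes, and in specimen 18, the lowest by reads, it had 614. As a share of reads on genes, Prl was lowest in specimen 10, at 0.00643% against 0.00670% in specimen 18. The group means were 67744 ± 114947 (SD, n = 3) in sound trauma and 5665 ± 4945 (SD, n = 3) after MSC.

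Growth hormone, made by somatotropes, followed the order of prolactin in the 4 highest libraries. Sound trauma specimen 6 had a scaled count of 94159 for Gh, specimen 8 had 1403 and specimen 10 had 591. Of the MSC treated animals, specimen 13 had 5673, specimen 18 had 615 and specimen 20 had 11460. Specimen 6 was 8.22-fold above specimen 20, and specimens 13 and 20 in turn were above specimens 8 and 10, so that the MSC treated animals lay between the extremes of the sound trauma group. Together, Prl, Gh, Cga and Pomc made up 2.63% of library 6, 0.0377% of library 8 and 0.0126% of library 10 by reads, and the MSC treated specimens gave 0.113% (13), 0.0136% (18) and 0.235% (20). In RNA of a whole tissue, fewer cells of a type and less RNA per cell cannot be told apart.

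**Figure D1:**
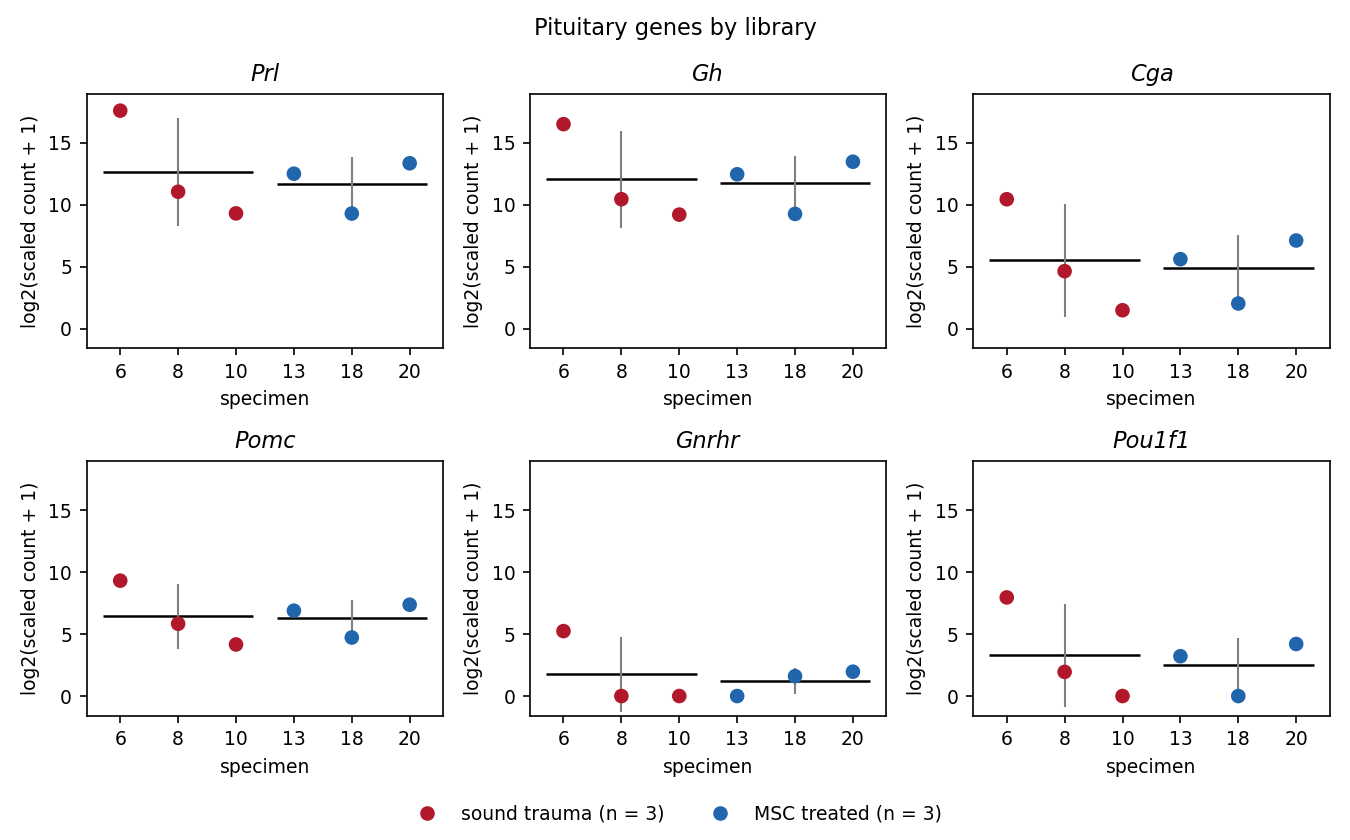
Log2(scaled count + 1) of the 6 pituitary genes in each of the 6 libraries, 1 point per library with a panel for each gene, sound trauma and MSC treated animals in separate colors and the specimen number on the horizontal axis. Every gene was highest in specimen 6, and the scaled count of Prl ranged from 627 in specimen 18 to 200471 in specimen 6.

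Cga encodes the alpha subunit that thyrotropin, luteinizing hormone and follicle-stimulating hormone have in common. Its scaled count was 1401 in specimen 6, 23.9 in specimen 8 and 1.79 in specimen 10, against 47.8 in specimen 13, 3.06 in specimen 18 and 138 in specimen 20. Specimen 6 was again highest, by 10.2-fold over specimen 20. Specimens 10 and 18 had 2 and 3 reads, at or under the floor of 3 reads that a count of 0 also allows, so the lowest of the 6 cannot be ranked.

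Gnrhr, the receptor by which gonadotropes sense gonadotropin-releasing hormone, was the least abundant. Specimen 6 held 32 reads of it, specimen 20 held 3, specimen 18 held 2 and the other 3 libraries held 0. As scaled counts these were 37.1 in specimen 6, 2.91 in specimen 20 and 2.04 in specimen 18. Since 5 of the 6 libraries were at or under the floor, only specimen 6 gave a level, and no order of the others can be read.

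Pomc encodes the precursor of corticotropin and of melanocyte-stimulating hormone, and it is also transcribed in some neurons. Specimens 6, 8 and 10 of the sound trauma group had scaled counts of 641, 56.4 and 17.0, and specimens 13, 18 and 20 of the MSC treated group had 118, 25.5 and 166. The spread was smaller than that of Prl, Gh or Cga, with specimen 6 at 3.86-fold over specimen 20. Pomc was read above the floor in all 6 libraries, with at least 19 reads in each.

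Pou1f1, the factor that drives the genes for prolactin, growth hormone and Tshb, was measurable in 3 libraries. Specimen 6 held 216 reads of it, specimen 20 held 18 and specimen 13 held 8. The remaining libraries were at or under the floor, with 3 reads in specimen 8 and 0 in specimens 10 and 18. Its scaled counts above the floor were 250.3 in specimen 6, 8.31 in specimen 13 and 17.5 in specimen 20, in the same order as those of Prl and Gh.

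On a scale per length (RPKM, reads divided by the gene's length and by the reads of the library), on which genes can be set against each other, Prl was at 25881 in specimen 6 and Gh at 9688. In that library Cga was at 0.503% of the Prl level, Pomc at 0.218% and Pou1f1 at 0.0237%. Cga was above Pomc in specimen 6 only, with Pomc:Cga at 43.3% there, 224% in specimen 8, 235% in specimen 13 and 114% in specimen 20, where the 95% Wilson interval of 91.4% to 142% leaves the order unresolved, while Cga was at the floor in specimens 10 and 18. In all 6 libraries Prl was the higher and Gh the lower of the pair per length. Prl held between 52.9% and 72.4% of the summed RPKM of Prl, Gh, Cga and Pomc.

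The study compared the groups to find genes that respond to MSC after noise. In a limma-trend fit over the 15970 genes that passed a filter on low counts, the number of genes past an adjusted p of 0.05 was 0 in either direction (0%), as it was with edgeR's quasi-likelihood test and with DESeq2. Without adjustment, 107 genes were lower (0.67%) and 269 higher (1.68%) at p under 0.05 in limma, 266 and 259 in edgeR, and 550 and 249 in DESeq2. Of the 6 pituitary genes, Prl, Gh, Cga and Pomc passed the filter and Gnrhr and Pou1f1 did not. Because a lower value chose them, they are described here without a p. The log2 difference, MSC treated minus sound trauma on log2(scaled count + 1), was -0.94 ± 2.22 (SE) for Prl, -0.32 ± 2.04 for Gh, -0.61 ± 2.40 for Cga and -0.11 ± 1.37 for Pomc. In a fit of all genes with at least 1 read it was -0.56 ± 1.42 (SE) for Gnrhr and -0.83 ± 2.05 for Pou1f1. Every standard error was larger than the difference beside it. The log2 ratio of the group means, which weights specimen 6 most, was -3.58 for Prl and -1.20 for Pomc.

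The direction depended on single animals. Without specimen 6, the log2 difference of Prl was 1.54, that of Gh 1.91, that of Cga 1.86 and that of Pomc 1.33, so that each was higher after MSC. Those of Gnrhr and Pou1f1 were 1.19 and 1.50. Without specimen 18, the MSC treated animal with the lowest Prl, the values were 0.28 for Prl, 0.91 for Gh, 0.84 for Cga, 0.70 for Pomc and 0.40 for Pou1f1, and that of Gnrhr remained below 0 at -0.77. Without specimen 13, Gnrhr came to 0.04. Leaving out specimen 8, 10 or 20 kept all 6 genes lower after MSC. The groups of none of the 4 genes tested were separate, while 2.92% of all genes tested were lower after MSC with no overlap and 4.25% were higher.

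**Figure D2:**
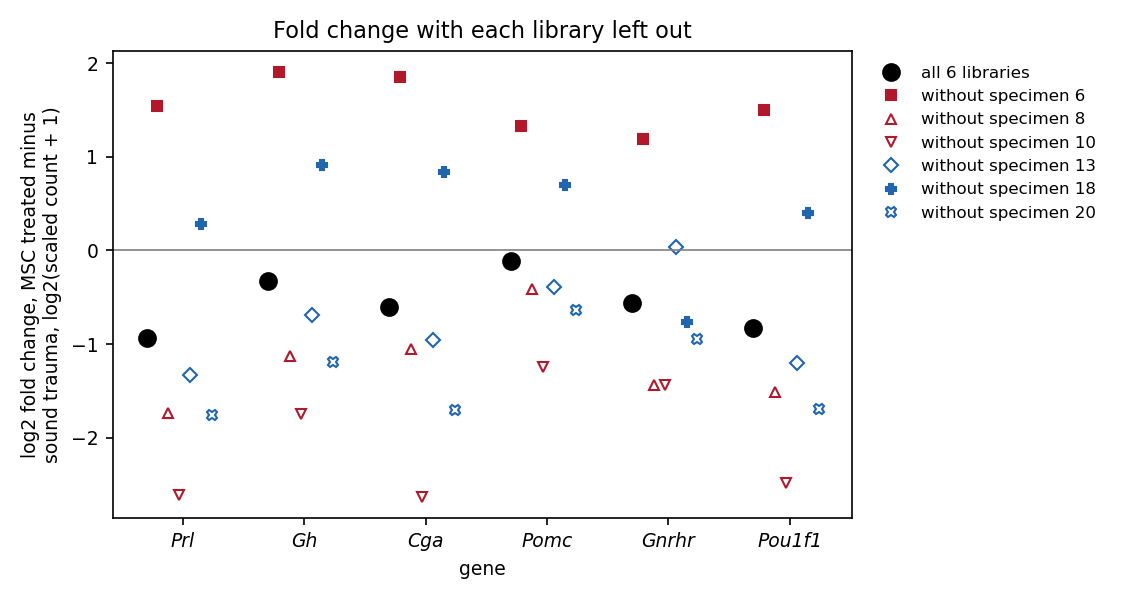
Log2 difference of each pituitary gene, MSC treated minus sound trauma on log2(scaled count + 1), with all 6 libraries and with each library left out in turn. Without specimen 6 all 6 genes lie above 0, with Prl at 1.54 and Gh at 1.91.

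Within a library, the ratio of 1 hormone to another does not depend on how libraries were scaled. The ratio of Gh to Prl per length, somatotrope to lactotrope hormone, was 37.4% in specimen 6 with a 95% Wilson interval of 37.1% to 37.7%, 52.6% (49.2% to 56.1%) in specimen 8 and 74.4% (66.9% to 82.7%) in specimen 10. After MSC it was 77.2% (74.4% to 80.1%) in specimen 13, 78.1% (69.8% to 87.4%) in specimen 18 and 86.9% (84.7% to 89.2%) in specimen 20. The groups did not overlap in this ratio, although the intervals of specimens 10, 13 and 18 did, and the interval covers counting error only. They overlapped in Cga:Prl, Pomc:Prl and Pomc:Gh. How often the ratio of other gene pairs separates the groups was not counted, so nothing is read from the lack of overlap. The mean log2 ratio of reads was 0.61 higher after MSC, against SDs of 0.50 in sound trauma and 0.094 after MSC (n = 3 each), and this difference was between 0.37 and 0.86 with each library left out. It is a description and was not tested, since both genes were chosen on this contrast. While Prl differed 320-fold between the highest and the lowest library, Gh:Prl differed 2.32-fold. Without specimen 6 these spans were 16.8-fold for Prl and 1.65-fold for Gh:Prl.

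The ratio of Cga, the gonadotrope and thyrotrope subunit, to prolactin could be measured in 4 libraries. Cga:Prl per length was 0.503% (0.476% to 0.533%) in specimen 6, 0.809% in specimen 8, 0.588% in specimen 13 and 0.944% (0.800% to 1.11%) in specimen 20. These 4 libraries spanned 1.88-fold, and the interval of specimen 6 lay below those of specimens 8 and 20. Specimens 10 and 18, at 2 and 3 reads of Cga, gave 0.203% and 0.352%, which are not levels that can be ranked. Pou1f1:Prl was 0.0237% (0.0207% to 0.0270%) in specimen 6, 0.0269% (0.0136% to 0.0531%) in specimen 13 and 0.0315% (0.0199% to 0.0498%) in specimen 20, a range of 1.33-fold with intervals that overlap. In specimens 10 and 18, with no read of Pou1f1, the floor allows up to 0.0802% and 0.0926%.

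The corticotrope and melanotrope precursor varied more against prolactin, through specimen 6. Pomc:Prl per length was 0.218% (0.201% to 0.237%) in specimen 6, 1.81% (1.40% to 2.34%) in specimen 8 and 1.83% (1.16% to 2.87%) in specimen 10. After MSC it was 1.38% (1.15% to 1.66%) for specimen 13, 2.78% (1.87% to 4.13%) for specimen 18 and 1.08% (0.926% to 1.25%) for specimen 20. The ratio was lowest where Prl was highest, and it spanned 12.7-fold over the 6 libraries, with the groups overlapping. That span rested on specimen 6, and it was 2.58-fold over the other 5 libraries. Over the 4 libraries in which Cga was above the floor it was 8.29-fold. The mean log2 ratio of Pomc to Prl was 0.84 higher after MSC, and without specimen 6 the difference was -0.18. Pomc:Gh gave 0.583% in specimen 6 and between 1.24% and 3.55% elsewhere, a span of 6.10-fold that came to 2.87-fold without specimen 6.

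**Figure D3:**
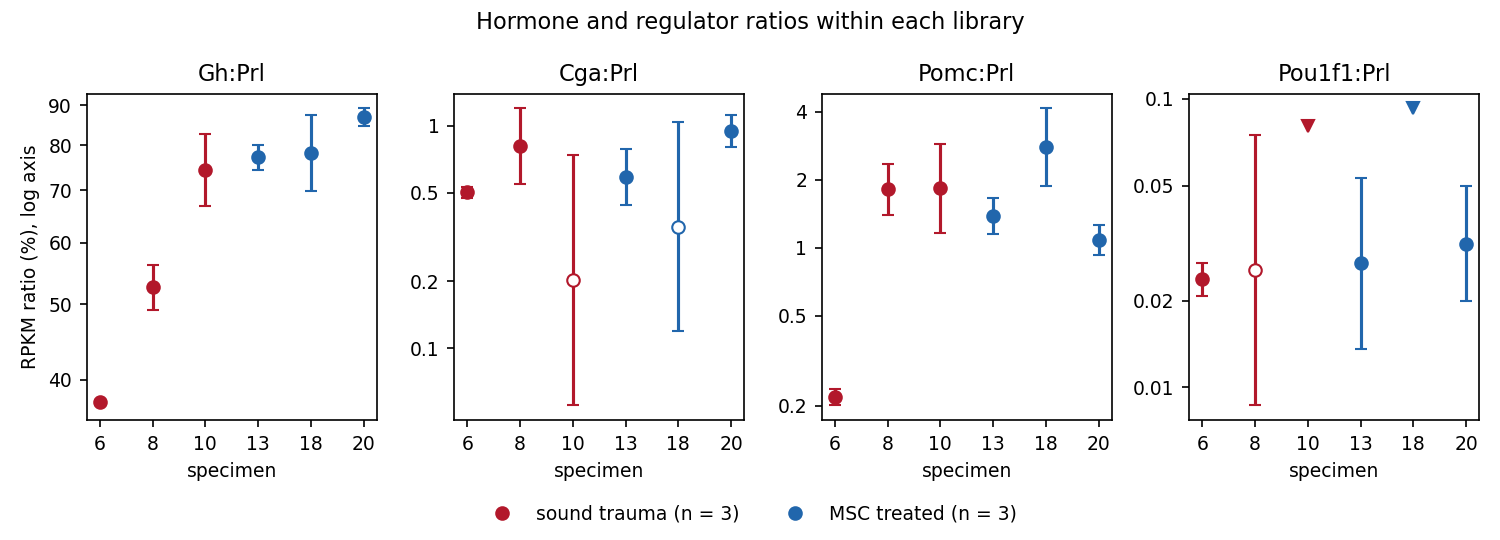
Ratios per length between pituitary genes in each library, in percent on a logarithmic axis, with 95% Wilson intervals as error bars, white points where a gene had 3 reads or fewer, and triangles for the upper limit where it had 0. Gh:Prl lies between 37.4% and 86.9%, while Pomc:Prl runs from 0.218% in specimen 6 to 2.78% in specimen 18.

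The choice of genes did not use the order of animals within the MSC treated group. That order was specimen 20, then 13, then 18 in 4 of the 4 pituitary genes that passed the filter, and it was found in 11.8% of all genes tested. It was found in 8.3% of the genes of the authors' down list, and in 7.1% of those down-list genes that were highest in specimen 6. Of the listed genes that passed the filter, the order was found in 4 of 4 of the Pou1f1 lineage (Prl, Gh, Ghrhr and Dlk1). It was found in 2 of 4 of the gonadotrope list (Cga and Lhb) and 1 of 2 of the corticotrope and melanotrope list (Pomc). Of the receptors 1 of 3 had it (Ghrhr again), as had 1 of 8 granule genes (Scg2), 0 of 4 transcription factors and 0 of 2 hypothalamic factors. These list counts thus repeat Prl, Gh, Cga and Pomc. The 4 genes are not independent of each other, and the order was noticed in these libraries, so the share is a description. Within the MSC treated group the highest library was above the lowest by 16.8-fold for Prl, 18.6-fold for Gh and 6.50-fold for Pomc, while Cga had only 3 reads in the lowest, and 0.507% of all genes tested were at least 4-fold higher in specimen 20 than in specimen 18. On log2(scaled count + 1) the range was 4.07 for Prl, 4.22 for Gh, 5.09 for Cga and 2.65 for Pomc. The median gene had a range of 0.36 and the 95th percentile was 1.56, and among the 15970 genes Gh ranked 25, Prl 29, Pomc 168 and Cga, whose lowest library had 3 reads, 11. In sound trauma the ranges were 8.30 for Prl, 7.31 for Gh, 8.97 for Cga and 5.16 for Pomc, where the median was 0.63 and the 95th percentile 2.81. The complete order of the hormones, specimen 6 above 20, 13, 8 and then 10 and 18, was found in 33 genes (0.207%).

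Over the 6 libraries, the log2 values of Prl correlated with those of Gh at r = 0.992, with Cga at 0.986, with Pomc at 0.984 and with Pou1f1 at 0.999. Leaving specimen 6 out gave 0.990, 0.987, 0.988 and 0.999 over 5 libraries. Of these, Pou1f1 had 3 libraries and Cga 2 at or under the floor, so their values rest partly on libraries without a measured level. Gnrhr, with 5 libraries at or under it, gave between 0.758 and 0.815 with the other members over 6 libraries and between 0.209 and 0.288 over 5. These values are descriptions over points that share their libraries. Among genes with a symbol outside the 6, the closest to Prl were Oxtr, the oxytocin receptor, at r = 0.981, C1ql2, a C1q-domain synaptic protein, at 0.980, Ghrhr at 0.965, Lhb at 0.958 and Gal at 0.951. Oxtr, Ghrhr, C1ql2 and Lhb were also among the 5 closest to Cga and to Pomc, with Oxtr first in both, at 0.975 and 0.976. In all, 41 of the 15970 genes tested, most of them without a symbol, correlated with Prl at r over 0.95.

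Other genes of the Pou1f1 lineage had a name for 7 of 8 list members, Prl, Gh and Pou1f1 included, and 7 of the 7 were highest in specimen 6. Tshb, the beta subunit of thyrotropin, had a scaled count of 103 in specimen 6 and 11.7 or less in each of the others. It was at or under the floor in 4 libraries. Its ratio per length to Cga was 1.54% in specimen 6 and 1.77% in specimen 20. The lengths used were 4555 bases for Tshb and 954 for Cga, and the ratio of reads was 0.0736 in specimen 6 and 0.0845 in specimen 20. Ghrhr, the receptor through which somatotropes are stimulated, was 260 in specimen 6, 7.65 in specimen 8 and 0 in specimen 10, against 13.5, 3.06 and 17.5 in specimens 13, 18 and 20. Drd2, the dopamine receptor that restrains prolactin release, was 53.3 in specimen 6 and between 2.68 and 17.5 elsewhere. Dlk1, an imprinted gene made in somatotropes and in other tissues, was 2340 in specimen 6, 49.7 in specimen 8 and 187 in specimen 10, against 319 (specimen 13), 51.1 (18) and 414 (20) after MSC. All 7 named genes were on the authors' down list, so their direction was fixed by how they were chosen, and the same holds for every named gene of the pituitary, hypothalamic and receptor lists below. Of this list 4 genes passed the filter, and their median log2 difference was -0.46, beside 0.0014 for all genes tested. All 4 had a lower fitted value, as had 49.8% of all genes tested, and nothing is read from that count.

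Of the gonadotrope list, 6 of 8 genes had a name and 4 of the 6 were highest in specimen 6, the members Cga and Gnrhr among them. Lhb, the beta subunit of luteinizing hormone, was 347 in specimen 6, 27.7 in specimen 8 and 11.6 in specimen 10, against 20.8 (specimen 13), 4.09 (18) and 49.5 (20) after MSC. As for Cga, specimens 6 and 20 were highest, but specimen 8 was above specimen 13. Lhb:Cga per length was 36.8% in specimen 6, 172% in specimen 8, 64.6% in specimen 13 and 53.4% in specimen 20. Fshb, the beta subunit of follicle-stimulating hormone, was 26.7 in specimen 6, 0.97 in specimen 20 and 0 in the other 4 libraries. Egr1, an immediate early gene of many tissues, lay between 622 and 938 in all 6 libraries, and both it and Nhlh2 were highest in specimen 8. The 4 genes that passed the filter were all lower after MSC in fitted value, at a median of -1.05.

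Corticotrope and melanotrope genes had a name for 4 of 6. Tbx19, which activates Pomc, was 29.0 in specimen 6, 8.74 in specimen 20 and under the floor in the others, between 1.02 and 1.91. Neurod4, which was put in this list but is known for the maturation of somatotropes, was 243 in specimen 6 and between 0.89 and 5.82 elsewhere. Crhr1, the receptor for corticotropin-releasing hormone and also a gene of neurons, was highest in specimen 8 at 302, so it did not follow Pomc. The 2 genes of this list that passed the filter, Pomc and Crhr1, were both lower in fitted value, at a median of -0.41.

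Among factors that form the pituitary, 8 of 15 had a name and 7 of the 8 were highest in specimen 6. Those 7 include Pou1f1, a member, and Tbx19, given above. Six6 was 155 in specimen 6 and at most 6.79 elsewhere, and Six3 was 86.9 in specimen 6 and at most 5.19 elsewhere. Pitx1, which acts in all pituitary lineages, was 162 in specimen 6 and between 3.57 and 38.2 elsewhere. Unlike the hormones, Sox2, a factor of progenitor and glial cells, was highest in specimen 8 at 185. The 4 genes of this list that passed the filter were lower in fitted value, at a median of -0.48.

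Hypothalamic releasing and inhibiting factors were named for 2 of 9, Sst and Gal, and the others are not analysed here. Sst, which restrains growth hormone release, was 57.9 in specimen 6 and 56.4 in specimen 8, with 0 to 19.4 elsewhere. Gal, a peptide of neurons and of lactotropes, was 197 in specimen 6 and between 6.13 and 15.6 elsewhere. Both were lower in fitted value, at a median of -0.96. Of 14 receptors for pituitary hormones and their regulators 6 had a name, and 4 of the 6 were highest in specimen 6. Those 4 include Gnrhr, a member, and Ghrhr and Drd2, given above. Prlr, the prolactin receptor, was 82.3 and 60.2 in specimens 6 and 8 and between 2.08 and 16.5 elsewhere, an order that is not that of Prl. The 3 receptors that passed the filter were lower in fitted value, at a median of -0.72.

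The machinery that cuts and stores prohormones is used by neurons and endocrine cells alike, and 8 of its 10 listed genes had a name. Scg2, a granin of secretory granules, had a scaled count of 1565 in specimen 6, 639 in specimen 8 and 24.1 in specimen 10, against 317 (specimen 13), 83.7 (18) and 528 (20) after MSC. It was the one of the 8 that was over 4-fold higher in specimen 20 than in specimen 18, at 6.31-fold, and the summed list was 1.03-fold higher. Of the 8, 7 were lower in fitted value and Pam, which amidates peptides, was higher at 0.18, with a list median of -0.40. Those directions are the ones by which the authors had listed these genes. Specimen 6 held the highest value in 3 of the 8 and specimen 8 in 4, and nothing is read from these counts.

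**Figure D4:**
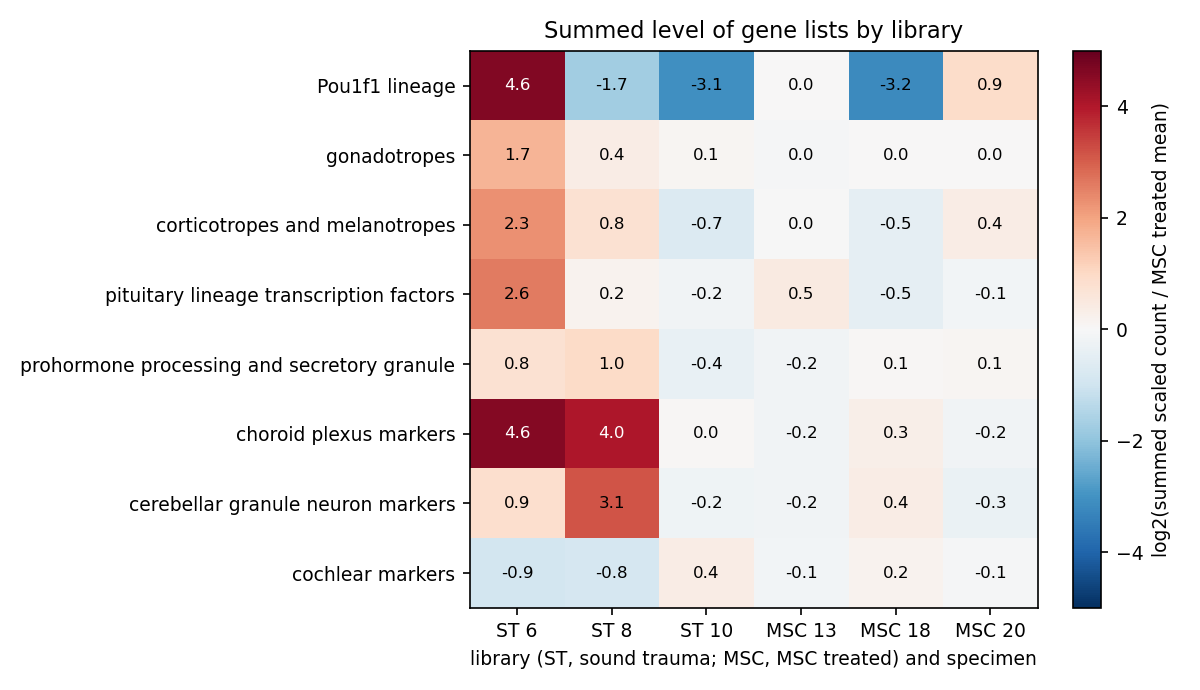
Heat map of the summed scaled count of each gene list (rows) in each library (columns), colored and printed as log2 of the sum over its mean in the MSC treated animals. The Pou1f1 lineage is highest in specimen 6 (summed scaled count 297636) and then in specimen 20 (22450), whereas cerebellar granule neuron markers are highest in specimen 8 (24031).

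Genes of other tissues also differed between the libraries. Choroid plexus markers, of which 6 of 7 had a name, came to a summed scaled count of 8246 in specimen 6, 5582 in specimen 8 and 355 in specimen 10, against 305, 422 and 301 after MSC, with Ttr alone at 7414 in specimen 6. None of the 6 was at 0 in any library. Cerebellar granule neuron markers, all 7 named, came to 4935, 24031 and 2354 in sound trauma and between 2191 and 3583 after MSC, with 7 of the 7 highest in specimen 8. The share of all genes that were highest in specimen 8 was not counted, so nothing is read from that count. Cochlear markers, 7 of 12 named, were lowest in specimens 6 and 8, at 1967 and 2080, and between 3393 and 4875 in the other 4 libraries. All named choroid plexus and cerebellar genes were on the authors' down list, and all 7 named cochlear genes were on the up list. The direction of these sums between the groups was therefore fixed by how the genes were chosen. Among these named genes, specimen 6 was the highest library for the pituitary genes and for the choroid plexus sum and the lowest for the cochlear sum. The part of these tissues in the result was not tested. Between specimens 20 and 18 the sum of the 6 pituitary genes differed 17.5-fold and the Pou1f1 lineage list, most of it Prl and Gh, 17.2-fold. The summed transcription factor list differed 1.24-fold, the corticotrope and melanotrope list 1.77-fold, the receptor list 1.05-fold and the gonadotrope list, most of it Egr1, 0.977-fold. In specimen 18 Crhr1 made up 129 of the corticotrope and melanotrope sum of 156 and of the receptor sum of 146. Crhr1 itself differed 0.747-fold and Pomc 6.50-fold. Specimen 20 had 0.713 times the choroid plexus sum of specimen 18, 0.612 times its cerebellar sum and 0.840 times its cochlear sum.

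Reads of Prl, Cga and Pou1f1 could include reads of a transcript on the opposite strand, since Gm47888, Platr9 and Gm49631 overlap them in the annotation of GRCm38, and the handling of strand in counting is not given in the sources used here. The same holds for Lhb with Ruvbl2 and Tshb with Tspan2. Gh, Pomc and Gnrhr had no overlapping gene.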

How the data were processed

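Total RNA of 6 left cochleae was sequenced. With a C57BL/6NJ reference, the authors obtained read counts for 41096 genes and deposited them scaled, as a signal in which each library has its own constant factor. The counting program and its handling of strand are not given in the sources used here. Every value (100%, tolerance 1e-06) was a whole multiple of 1 step, so whole reads were recovered. Intervals, and the detection floor at 3 reads, express counting error alone. The authors' lists of 2741 lower and 1137 higher genes also give FPKM means per group. The deposited FDR (false discovery rate) and log2 fold change hold the authors' own comparison, for which the methods name NOISeq, and were not used. The deposited FPKM means were used only to recover gene lengths, whole for 3878 of 3878 genes (tolerance 0.01 bases) and the same in both groups for 3865 of 3865. Gene symbols came from these lists only (3716 genes), so other genes have an identifier alone, and every named gene had been selected on the same contrast.

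The test was limma-trend on log2(scaled count + 1) over 15970 genes kept by filterByExpr from 25369 with at least 1 read, with Benjamini-Hochberg adjustment. On the recovered reads, edgeR's quasi-likelihood test called 0 genes. A fold change on this scale understates that of low genes. The members and lists were chosen with earlier results of these data known. Genes named are the members, list genes with a symbol and, for Prl, Cga and Pomc, the 5 named genes with the highest Pearson r. Genes named in the last part were chosen after their values were seen. Neurod1 is not reported here. Alternatives were other scalings, pseudocounts of 0.1 and 10, other filters, each library left out, edgeR, DESeq2 and limma-voom. Separate animals are the replicates by the labels. Promoters are RefSeq sequences on GRCm38.p6. Versions: DESeq2 1.42.0, edgeR 4.0.16 and limma 3.58.1 in R 4.3.3, and pandas 2.3.3 in Python 3.11.15.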

Additional observations from a re-analysis of the deposited data

How the results depend on the processing

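With each library left out in turn, the log2 differences (MSC treated minus sound trauma) ranged from -2.61 to 1.54 for Prl, -1.75 to 1.91 for Gh, -2.63 to 1.86 for Cga, -1.25 to 1.33 for Pomc, -1.43 to 1.19 for Gnrhr and -2.49 to 1.50 for Pou1f1. The list medians ranged from -1.98 to 1.67 (Pou1f1 lineage), -2.56 to -0.21 (gonadotropes), -1.12 to 0.24 (corticotropes and melanotropes), -0.92 to 0.43 (transcription factors), -2.34 to 0.28 (hypothalamic factors), -2.21 to -0.61 (receptors) and -1.13 to -0.16 (granule genes). The differences of the log2 ratios ranged from 0.37 to 0.86 for Gh:Prl, -0.14 to 0.86 for Cga:Prl, -0.18 to 1.35 for Pomc:Prl and -0.55 to 0.73 for Pomc:Gh. Values above 0 for members came without specimens 6 and 18, and for Gnrhr without specimens 6 and 13, and the Pou1f1 lineage median was above 0 without either specimen 6 or specimen 18. Genes past an adjusted p of 0.05 numbered 0 to 1 lower (1 without specimen 10) and 0 higher, and at an unadjusted p 50 to 1083 lower and 106 to 1395 higher (both maxima without specimen 10). Other settings turned 2 of 168 values, Pomc to 0.061 in limma-voom and Gnrhr to 0.27 with a pseudocount of 0.1. For the unadjusted counts they gave 61 lower with total reads scaling, 299 lower and 427 higher with no filter beyond 1 read, and 266 lower in edgeR and 550 lower in DESeq2. Cga:Prl fell below 0 without specimen 10, Pomc:Prl without specimen 6 and Pomc:Gh without specimen 6 or 18. The cause was not tested. The tools that compare group means gave larger falls, with Prl at -3.60 in edgeR and -3.63 in DESeq2. No paired analysis was possible because the specimens of the 2 groups share no numbers. Depth limits Gnrhr, Pou1f1, Fshb, Tshb, Tbx19, Neurod4, Six3, Six6 and the lowest Cga values, which lie at or under 3 reads in several libraries.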

Other observations

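Within the MSC treated group, 80 of the 15970 genes tested had at least 10 reads in specimen 20 and were at least 4-fold higher there than in specimen 18, and 49 met the same limits in the opposite direction. Of the 80, 26 had a symbol, and Cga, Gh, Prl, Lhb, Dlk1, Pomc, Scg2 and Ghrhr were among them. The rest were not pituitary genes alone. Chrng, the fetal gamma subunit of the muscle acetylcholine receptor, was 12.4-fold higher in specimen 20 than in specimen 18, and Myh8, a perinatal muscle myosin, 5.82-fold. Lipf, gastric lipase, was 8.68-fold higher, with 2897 reads in specimen 6, 7 in specimen 8, 52 in specimen 10, 88 in specimen 13, 15 in specimen 18 and 137 in specimen 20, so that its 3 highest libraries were those of Prl. Of the 80, 35 were highest in specimen 20, 21 in specimen 6, 14 in specimen 8, 7 in specimen 10 and 3 in specimen 13. These genes were chosen after their values were seen.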
